A study of Mus musculus with 17 samples.

Results

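The genes described here encode enzymes and a chaperone that modify collagen chains and join them to each other. They were chosen by name, as the table rows whose Ensembl identifiers map to Lox, Loxl1, Loxl2, Loxl3, Loxl4, Plod1, Plod2, Plod3, Serpinh1 and P4ha3, which makes 10 of the 52545 genes in the table. All 10 were found, and all 10 passed the filter on low values (a normalized count of at least 10 in 5 or more libraries).

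All libraries came from liver tissue outside tumours. The mice were male, of strain C57BL/6J and 32 weeks old, each gave 1 library, and they formed 3 groups. The antibody group (6 mice) had received 1 dose of 100 mg/kg diethylnitrosamine (DEN), a liver carcinogen, in week 1, and CDA-HFD, a choline-deficient high-fat diet that produces fatty liver with fibrosis. In these mice, 500 µg of a monoclonal antibody against claudin-1 (CLDN1 mAb), a tight junction protein, had been injected into the peritoneum 1 time a week for 16 weeks. The vehicle group (6 mice) had the same DEN dose and diet, with PBS injected on the same schedule. The regular diet group (5 mice) was untreated. DEN, CDA-HFD and injections were thus given together in both model groups, and their effects against regular diet cannot be told apart.

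Collagen chains are modified in the endoplasmic reticulum before they fold. Prolyl 4-hydroxylases add the hydroxyl groups that make the triple helix stable, lysyl hydroxylases (PLOD enzymes) hydroxylate lysines that later carry sugars and crosslinks, and HSP47, the product of Serpinh1, binds the folded helix on its way out of the cell. Outside the cell, the copper-dependent lysyl oxidases (LOX and its LOX-like relatives) oxidize lysines and hydroxylysines of collagen and elastin, which then join into covalent crosslinks. In fibrotic liver, these crosslinks are known for making scar collagen stiffer and harder to degrade.

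RefSeq promoter windows (build GRCm38.p6) were at hand for 5 of the 10 genes (Loxl4, Plod1, Plod3, Serpinh1 and P4ha3). The windows of the 3 among them that passed a test against regular diet are shown, since Loxl4 fell where Serpinh1 and P4ha3 rose. Each is the 250 bases before the gene's start in RefSeq, 5′ to 3′ on the gene's strand. For Loxl4 the start in GENCODE, given further on, lies inside the window. Capitals mark matches, on either strand, to the hypoxia response core (ACGTG or GCGTG) and the SMAD core (CAGAC). A match on the other strand appears as its reverse complement.
Loxl4 (chr19:42612807-42613056, minus strand): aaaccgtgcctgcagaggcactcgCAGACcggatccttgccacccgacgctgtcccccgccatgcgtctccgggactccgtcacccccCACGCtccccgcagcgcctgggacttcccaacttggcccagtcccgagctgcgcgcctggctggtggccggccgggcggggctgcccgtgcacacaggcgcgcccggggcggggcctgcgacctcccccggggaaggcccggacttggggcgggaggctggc
Serpinh1 (chr7:99353240-99353489, minus strand): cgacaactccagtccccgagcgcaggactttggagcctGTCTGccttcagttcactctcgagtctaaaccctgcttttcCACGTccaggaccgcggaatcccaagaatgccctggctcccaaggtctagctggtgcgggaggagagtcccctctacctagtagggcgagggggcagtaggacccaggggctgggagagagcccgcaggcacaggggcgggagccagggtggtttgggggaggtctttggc
P4ha3 (chr7:100285270-100285519, plus strand): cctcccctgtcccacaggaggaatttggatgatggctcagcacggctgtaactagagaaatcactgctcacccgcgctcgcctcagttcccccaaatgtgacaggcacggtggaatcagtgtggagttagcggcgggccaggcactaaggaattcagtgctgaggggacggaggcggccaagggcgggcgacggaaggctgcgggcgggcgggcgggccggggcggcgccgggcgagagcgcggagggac
The Loxl4 window is the richest in G and C of the 5, at 76.0%, against 63.6% for Serpinh1 and 67.2% for P4ha3. The median over the windows of all 27025 genes with one was 52.4%. Loxl4 and Serpinh1 each hold 1 hypoxia response core and 1 SMAD core, and P4ha3 holds neither. Over the 5 genes, 4 windows hold a hypoxia response core, a match found in 38.6% of all 32851 windows searched, and 3 hold a SMAD core, found in 42.2%. Neither the TEAD motif GGAATG (12.6% of all windows) nor the AP-1 motif TGANTCA (6.75%) occurs in any of the 5. These 4 motifs were searched on both strands, and a match is a string of letters, not a shown binding site.

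Values below are normalized counts as the authors deposited them, and fold changes are differences of log2(normalized count + 1) from limma, with SE, fitted over 17 libraries and adjusted by Benjamini-Hochberg over the 18624 genes that passed the filter. A gene rose or fell where the adjusted p was under 0.05. Gene positions are those of GENCODE M21 on mm10. Deposited totals ranged from 29.7 to 74.6 M per library, and the estimated depth from 27.7 to 59.5 M fragments. Of the liver's defining genes, 7 of 8 hepatocyte markers were present, and Alb was listed at 0 in all 17 libraries. In tissue of this kind, fewer cells of a type and less RNA per cell cannot be told apart.

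In vehicle livers, 7 of the 10 genes rose against regular diet, 1 fell, and 2 did not pass the test. Over all genes tested, 29.8% rose and 20.7% fell. The median fold change of the 10 was 2.64 on the log2 scale, beside 0.04 over all genes. P4ha3 passed the filter through the model livers alone. Of the other 9 genes, 6 rose and 1 fell in both comparisons with regular diet, with medians of 2.40 for vehicle and 1.96 for antibody. The antibody group gave the same counts against the same regular diet livers, with a median of 2.19 beside 0.01, where 24.8% of all genes rose and 14.1% fell. The groups did not overlap for 6 genes higher and 1 lower in vehicle livers, where 19.1% and 10.5% of all genes did so, and for 7 higher and 1 lower in antibody livers, where 18.6% and 10.4% did. P4ha3, let in by the model livers alone, is among the genes higher without overlap in both comparisons. Both comparisons share the regular diet livers. Between antibody and vehicle none of the 10 passed, and 0% of all genes did.

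**Figure D1:**
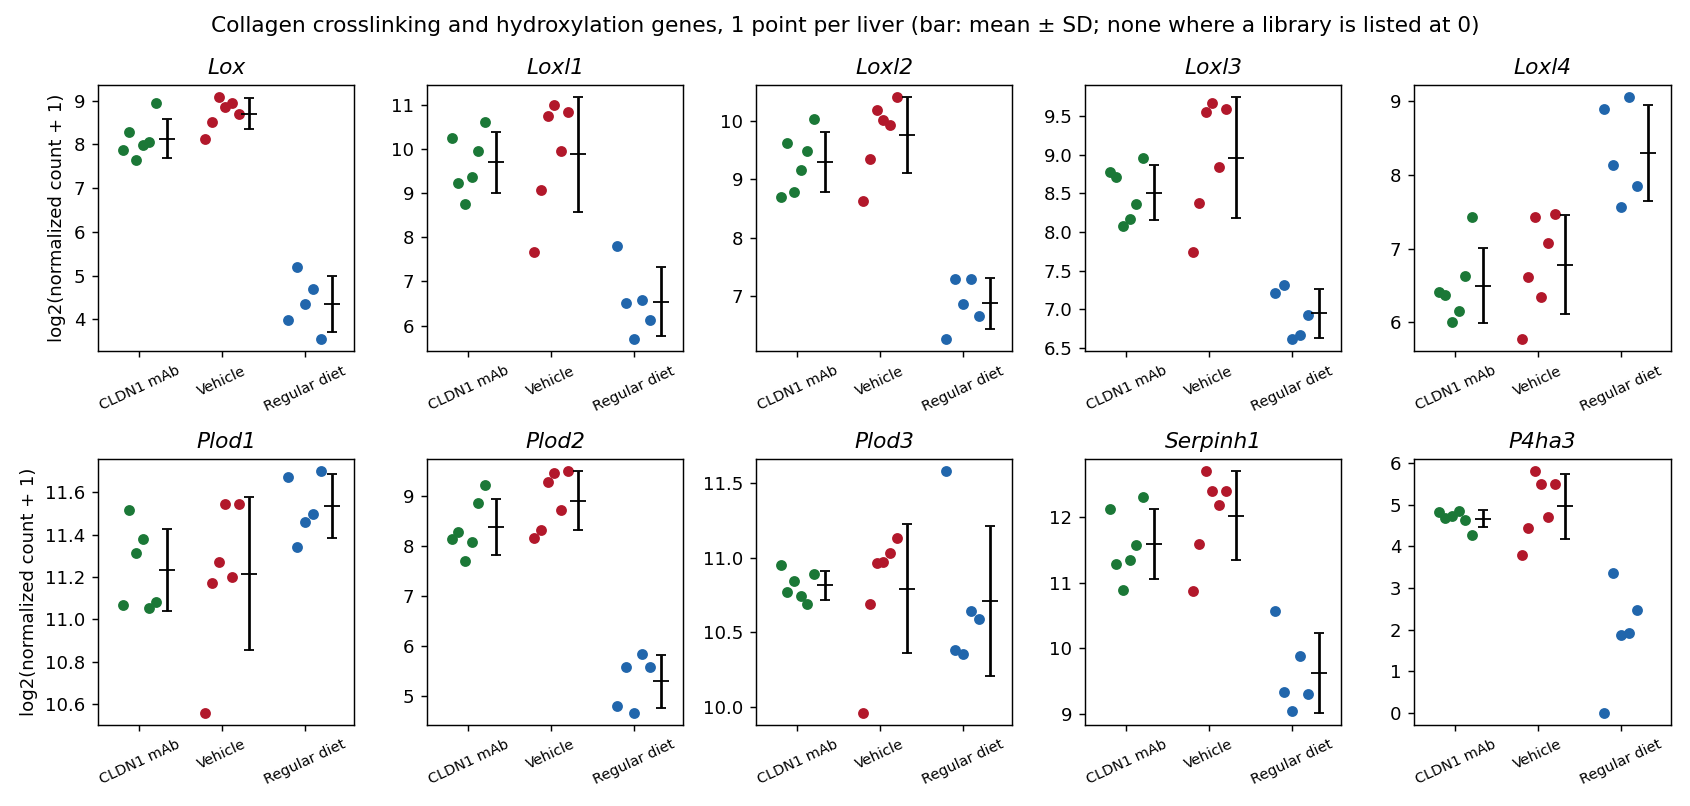
Normalized counts of the 10 genes on a log2(value + 1) scale, 1 point per liver in the antibody (CLDN1 mAb, 6), vehicle (6) and regular diet (5) groups, with the mean ± SD of the log2 values as a bar (no bar for P4ha3 in regular diet, where 1 library is listed at 0). Lox and Plod2 show a gap between model and regular diet livers, Loxl4 has all 5 regular diet points above every model liver, and for Plod1 and Plod3 the points of the 3 groups overlap.

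Lox (chr18:52516067-52529867, minus strand) encodes the founding lysyl oxidase, which crosslinks collagen and elastin. It stood at 198 (lowest), 259 (median) and 492 (highest) normalized counts in antibody livers, and at 277, 437 and 541 in vehicle livers. In the 5 regular diet livers it stood at 14.7, 35.4, 19.3, 24.8 and 10.7, which is 6 to 27 estimated fragments. No model liver overlapped the regular diet group. The fold change was 4.35 ± 0.29 for vehicle (adjusted p = 3.08e-09) and 3.78 ± 0.29 for antibody (adjusted p = 1.93e-08), both against regular diet. Of all genes tested, 1.58% had a larger rise in vehicle livers.

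Loxl1 (chr9:58287738-58313186, minus strand), known for its part in elastic fibre assembly, had 433, 821 and 1563.5 normalized counts (lowest, median and highest) in antibody livers, and 202, 1345 and 2027 in vehicle livers. The regular diet livers had 221, 90.6, 50.8, 94.95 and 68.7. The vehicle range touched the regular diet range, because vehicle replicate 1 (202) lay below regular diet replicate 1 (221). Loxl1 rose by 3.33 ± 0.53 in vehicle livers (adjusted p = 5.44e-05) and by 3.15 ± 0.53 in antibody livers (adjusted p = 0.000134).

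Loxl2 (chr14:69609068-69695834, plus strand), which crosslinks collagen IV of basement membranes as well as fibrillar collagen, had 416, 641 and 1052 normalized counts in antibody livers, 397, 1004 and 1359 in vehicle livers, and 76.2, 156, 116, 157 and 101 in the regular diet livers. Both model groups lay wholly above regular diet, with fold changes of 2.87 ± 0.31 for vehicle (adjusted p = 7.39e-07) and 2.41 ± 0.31 for antibody (adjusted p = 7.74e-06). Loxl3 (chr6:83034173-83052562, plus strand), another LOX-like oxidase, had 269, 372 and 496.5 in antibody livers, 214, 602 and 813 in vehicle livers, and 147, 159, 97.1, 100.5 and 121 in the regular diet livers. Its ranges did not touch regular diet either, and it rose by 2.01 ± 0.31 in vehicle livers (adjusted p = 3.55e-05) and 1.56 ± 0.31 in antibody livers (adjusted p = 0.000603). The exons of Loxl3 share 535 bases, 11.6% of their length, with Htra2 on the opposite strand, and the strand setting of the counts is not given in the sources used here. Htra2 reached 1599 normalized counts, above every value of Loxl3, so its reads could have been counted for Loxl3, whose level is uncertain.

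Loxl4 (chr19:42593982-42612813, minus strand), the remaining LOX-like gene, went the other way. It had 63.0, 82.8 and 172 normalized counts in antibody livers and 53.8, 115 and 176 in vehicle livers. The regular diet livers had 474, 279.5, 188, 529.8 and 229, each above every model liver. It fell by 1.51 ± 0.35 in vehicle livers (adjusted p = 0.00155) and by 1.80 ± 0.35 in antibody livers (adjusted p = 0.000506). With every library scaled to the same total, which moved the median of all genes by 0.62 in the vehicle comparison and by 0.44 in the antibody comparison, the vehicle value was -0.89 and did not pass (adjusted p = 0.0612), while the antibody value was -1.36 and did (adjusted p = 0.00971).

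The lysyl oxidase family was led on average by Loxl1 in both model groups and by Loxl4 in regular diet livers. Per kilobase of exon, which allows levels of different genes to be compared, Loxl4 made up 3.27 to 4.57% of the summed level of the 5 genes in antibody livers, 1.73 to 5.06% in vehicle livers and 40.3 to 59.7% in regular diet livers. Lox made up 11.1 ± 1.96% in antibody livers (SD, n = 6), 13.6 ± 5.72% in vehicle livers (n = 6) and 2.78 ± 1.33% in regular diet livers (n = 5). Loxl1 held the largest mean share in both model groups, at 47.6 ± 8.78% in antibody and 42.9 ± 11.5% in vehicle livers, against 18.2 ± 6.36% in regular diet livers. The share of Loxl3 averaged 15.0, 15.8 and 17.3% in antibody, vehicle and regular diet livers. The summed level of the family was 563 ± 203 normalized counts per kb in antibody, 778 ± 365 in vehicle and 167 ± 53.3 in regular diet livers.

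**Figure D2:**
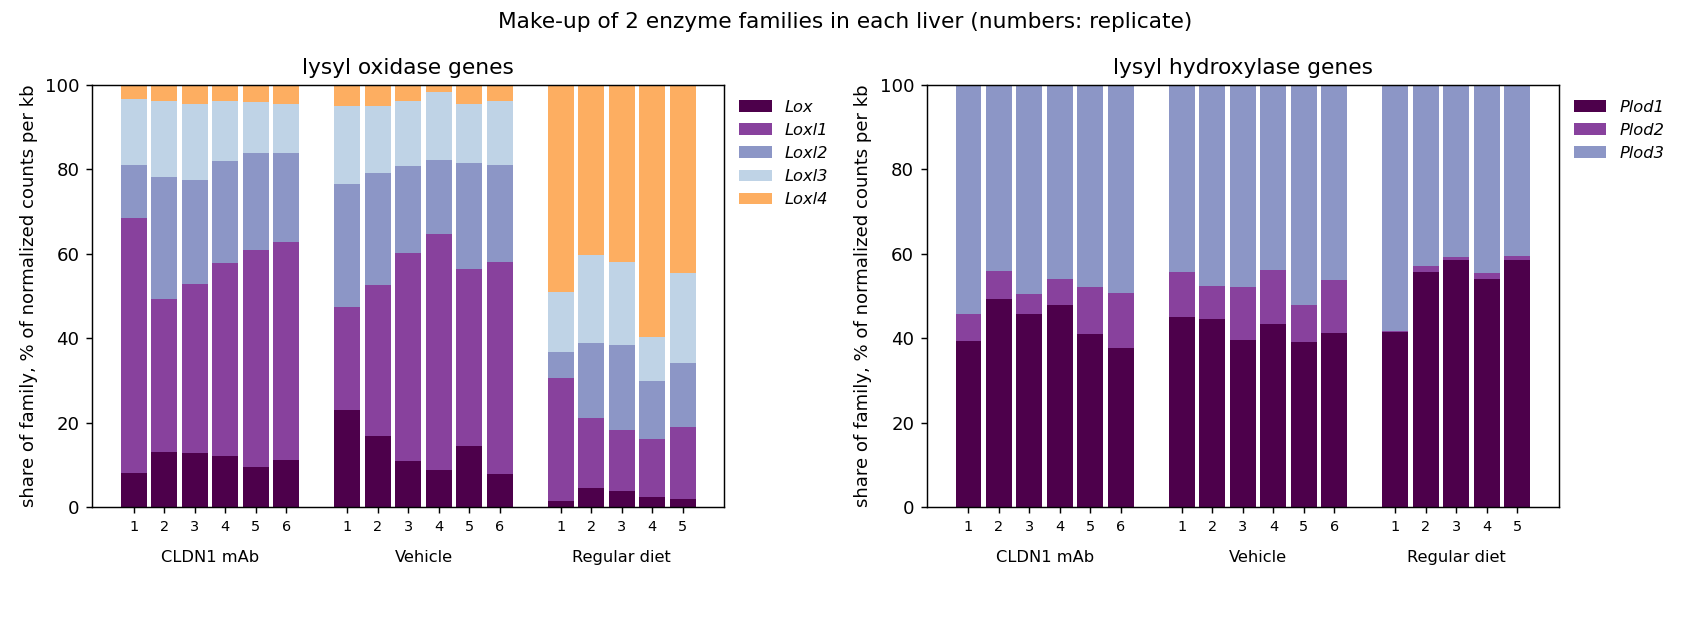
Share of each gene in the summed normalized counts per kb of the lysyl oxidase family (left) and the lysyl hydroxylase family (right), 1 bar per liver, with livers of the antibody, vehicle and regular diet groups from left to right. Loxl4 takes 40.3 to 59.7% of the lysyl oxidase bar in regular diet livers and at most 5.06% in any model liver, and Plod2 is at most 1.32% of the lysyl hydroxylase bar in regular diet livers.

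Of the 3 lysyl hydroxylases, Plod2 alone passed the test on the deposited scale, and Plod3 passed as well in vehicle livers when all libraries were scaled to 1 total (0.71, adjusted p = 0.0161). The enzyme encoded by Plod2 hydroxylates the telopeptide lysines from which the stable hydroxylysine-derived crosslinks of scar collagen form. Plod2 (chr9:92542223-92608428, plus strand) had 207, 295 and 594 normalized counts (lowest, median and highest) in antibody livers, 283, 521 and 722 in vehicle livers, and 27.02, 47.2, 24.5, 56.4 and 47.4 in the regular diet livers. No model liver overlapped regular diet. The fold change was 3.60 ± 0.32 for vehicle (adjusted p = 8.26e-08) and 3.07 ± 0.32 for antibody (adjusted p = 7.4e-07).

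Plod1 (chr4:147909753-147936767, minus strand), which hydroxylates lysines within the helix, had 2121, 2353 and 2923 normalized counts in antibody livers, 1508, 2409.5 and 2986 in vehicle livers, and 3262, 2593, 2815, 2887 and 3327 in the regular diet livers. The ranges overlapped, and the fold changes of -0.32 ± 0.16 for vehicle (95% interval -0.66 to 0.02, adjusted p = 0.108) and -0.30 ± 0.16 for antibody (-0.64 to 0.04, adjusted p = 0.153) did not pass. Scaled to the same total per library, both turned positive, at 0.30 and 0.14, and did not pass either (adjusted p = 0.235 and 0.633).

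Plod3 (chr5:136987019-136996648, plus strand), whose enzyme also adds sugars to hydroxylysine, had 1653, 1792.5 and 1977 normalized counts in antibody livers, 994, 2001.5 and 2245 in vehicle livers, and 3068, 1333, 1309, 1595 and 1538 in the regular diet livers. Regular diet replicate 1 was the highest of all 17 livers and vehicle replicate 1 the lowest. The fold changes were 0.08 ± 0.22 for vehicle (95% interval -0.38 to 0.54, adjusted p = 0.785) and 0.11 ± 0.22 for antibody (-0.36 to 0.57, adjusted p = 0.741). Without those 2 livers, an alternative chosen after seeing the data, they were 0.47 (adjusted p = 0.000917) and 0.32 (adjusted p = 0.0113), so 8 rather than 7 of the 10 genes rose in either comparison. The 2 livers left out are the ones that lowered the Plod3 fold change for vehicle most, and without them more of all genes passed too, with 34.6% higher and 27.4% lower in vehicle livers and 30.1% and 23.9% in antibody livers. Plod3 exons share 529 bases, 11.7% of their length, with Znhit1 on the opposite strand, which reached 4186 normalized counts, so the level of Plod3 is uncertain as well. Per kb, Plod2 made up 7.97 ± 3.28% of the lysyl hydroxylase sum in antibody livers, 10.8 ± 2.14% in vehicle livers and 0.943 ± 0.394% in regular diet livers.

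Serpinh1 (chr7:99345376-99353239, minus strand) encodes HSP47, the collagen-specific chaperone of the endoplasmic reticulum. It had 1893, 2818 and 5074 normalized counts in antibody livers, 1866, 5016 and 6682 in vehicle livers, and 1518, 647, 525.97, 939 and 628 in the regular diet livers. Every model liver lay above every regular diet liver, with vehicle replicate 1 and antibody replicate 3 nearest to them. The fold change was 2.40 ± 0.34 for vehicle (adjusted p = 1.44e-05) and 1.96 ± 0.34 for antibody (adjusted p = 0.000164).

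P4ha3 (chr7:100285520-100319699, plus strand), a catalytic subunit of prolyl 4-hydroxylase, was the scarcest of the 10. It had 18.4, 25.04 and 27.8 normalized counts in antibody livers and 12.9, 34.7 and 55.3 in vehicle livers. In regular diet livers it was listed at 0 in replicate 1 and stood at 9.19, 2.63, 2.75 and 4.58 in the others, which is at most 7 estimated fragments. Model livers did not overlap regular diet, and P4ha3 rose by 3.04 ± 0.48 in vehicle livers (adjusted p = 4.7e-05) and by 2.75 ± 0.48 in antibody livers (adjusted p = 0.000185). At these counts the size of the fold change depended on the pseudocount, with 1.60 for vehicle and 1.35 for antibody at a pseudocount of 10. All 5 regular diet values lie below the filter minimum of 10, so P4ha3 entered the test only through the model livers. With a minimum of 50 it was not tested, and 6 genes rose in either comparison. Per kb, P4ha3 was 1.86 to 4.88% of the sum of the 3 catalytic subunit genes in antibody livers, 2.12 to 4.25% in vehicle livers and at most 1.13% in regular diet livers, and P4ha1 held most of it in all groups.

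**Figure D3:**
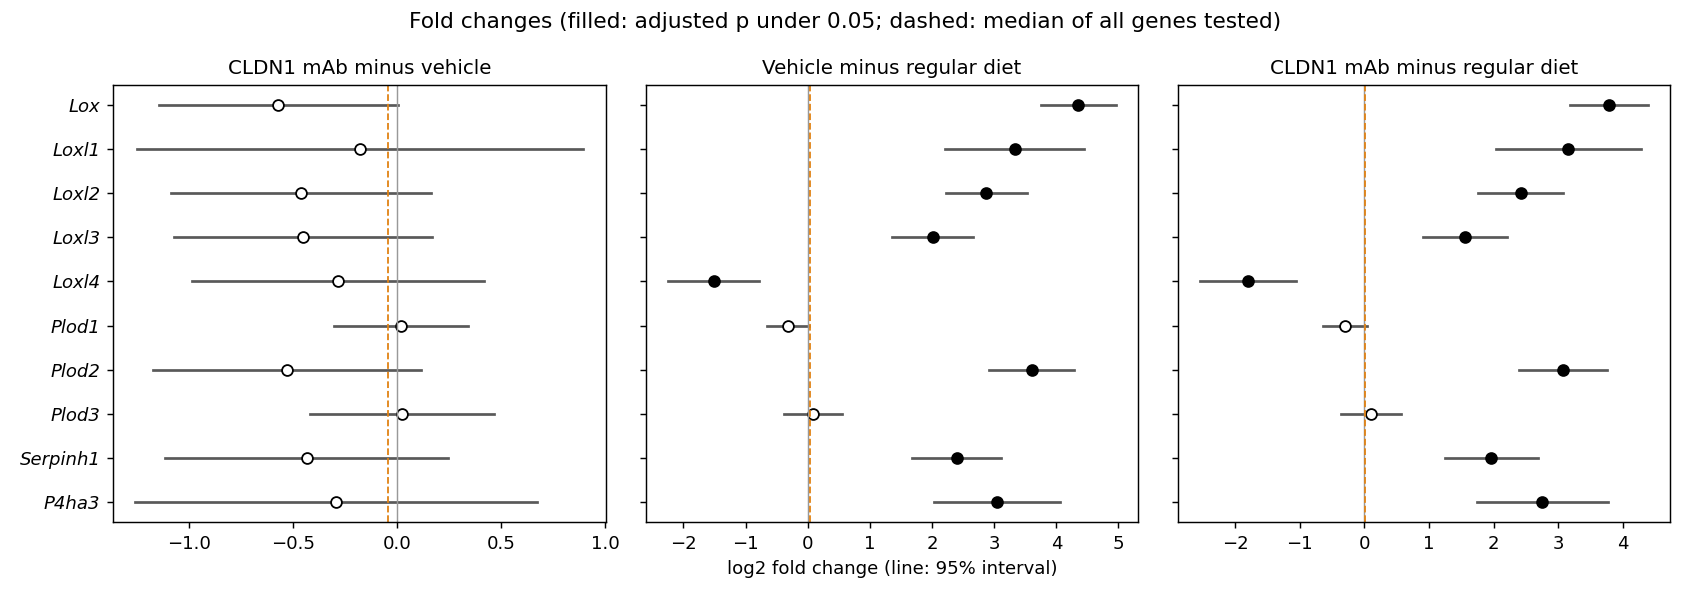
Fold changes of the 10 genes (log2, points) with 95% intervals (lines) for antibody minus vehicle, vehicle minus regular diet and antibody minus regular diet, where filled points have an adjusted p under 0.05 and the dashed line is the median of all genes tested. Both comparisons with regular diet show 7 filled points above 0 and Loxl4 below it (the vehicle value of Loxl4 was -0.89 and not past the threshold with the same total per library), and all 10 intervals for antibody minus vehicle hold 0.

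Ordered by level per kb, Serpinh1 led in antibody livers (1335 ± 507 normalized counts per kb, SD, n = 6) and in vehicle livers (1845 ± 717, n = 6), above the range of the next gene in both, while in regular diet livers it was the third at 349 ± 165 (n = 5) and overlapped Plod3 and Plod1 above it. Plod3, Plod1 and Loxl1 followed in both model groups, and neighbours among these overlapped. Next came Loxl2, Loxl3, Plod2 and Lox in that order in both model groups, each overlapping the next. Loxl4 was the ninth in both model groups, at 22.5 ± 9.38 in antibody and 28.2 ± 11.9 in vehicle livers, and the fourth in regular diet livers, at 80.7 ± 36.2. P4ha3 was the tenth in every group.

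Among the 12 model livers, the 10 genes varied together. Over their 45 pairs, Pearson's r of the deviations from the group means ran between 0.294 and 0.958 with a median of 0.753, and all 45 were above 0. The points share libraries and their scaling. Such pairs over all genes are not given here, so varying together is not shown to be particular to the 10. The closest pairs were Loxl1 with Serpinh1 (0.958) and Loxl1 with Loxl3 (0.944). Vehicle replicate 1 was the lowest of its group for 10 of 10 genes and had the highest deposited total of that group, 42.1 M, whereas vehicle replicate 6, with 29.7 M, was the highest for 5. Antibody replicate 6, with 35.4 M, was the highest of its group for 7 genes, and antibody replicate 3, with 42.8 M, the lowest for 6. The part of the scaling in this variation was not tested.

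Levels were next set against Col1a1, which encodes a chain of the main scar collagen. Over the 12 model livers, 9 of the 10 genes correlated with Col1a1 (permutation test with 100000 resamples, Benjamini-Hochberg over the 10). The lowest r among the 9 was 0.648, and 19.2% of the other 18623 genes tested had an r at least as high. The median r was 0.802 for the 10 and 0.13 over all genes. Serpinh1 was highest, with r = 0.932 and rho = 0.944 (adjusted p = 0.0002 and 0.0006). Loxl1 followed with r = 0.926 and rho = 0.846 (adjusted p = 0.000733 and 0.00293). Loxl4 correlated too, with r = 0.847 and rho = 0.804 (adjusted p = 0.000733 and 0.0064). The raw p of 2e-05 for the r of Serpinh1 is the smallest these permutations can give. Lox had r = 0.699 and rho = 0.713 (adjusted p = 0.0143 and 0.0157), Plod2 r = 0.749 and rho = 0.755, Loxl2 r = 0.761 and rho = 0.79, Loxl3 r = 0.843 and rho = 0.86, and Plod3 r = 0.849 and rho = 0.713. Plod1 did not pass, with r = 0.47 and rho = 0.189 (adjusted p = 0.15 and 0.558). P4ha3 had r = 0.648 (adjusted p = 0.022) and rho = 0.413 (adjusted p = 0.205). Without the 2 livers farthest from the median of Col1a1 (vehicle replicate 1 and antibody replicate 2), r was 0.956 for Serpinh1, 0.861 for Loxl1, 0.886 for Loxl3, 0.865 for Lox, 0.84 for Loxl4, 0.837 for Plod2, 0.805 for Loxl2, 0.708 for Plod3 and 0.13 for Plod1. That of P4ha3 was then 0.416 and did not pass (adjusted p = 0.261). On deviations from the group means 8 of the 10 passed, with P4ha3 at 0.627 (adjusted p = 0.0502) and Plod1 at 0.49 (adjusted p = 0.142). On these deviations 3718 of the other 18623 genes had an r of 0.648 or above, and the median r of all genes was 0.12. Scaled to equal totals, 10 of 10 passed, with Plod1 at 0.742 (adjusted p = 0.00676), and the median r of all genes was then 0.54, with 38.6% at 0.648 or above.

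The gene most like each of the 10 was sought among 12767 genes by Pearson's r of the deviations from group means over the same 12 livers. For Loxl1 it was P3h3 (0.992), which encodes a member of the prolyl 3-hydroxylase family, and for Serpinh1 it was Eln (0.981), the elastin gene. The nearest to Loxl3 was Lrrc32 (0.992), to Plod2 Abi2 (0.988), to Plod3 Arid5a (0.981) and to Loxl2 Ccdc8 (0.979). Plod1 was nearest to Tmem50a (0.96) and P4ha3 to Dnaaf3 (0.955). Loxl4 was nearest to Hmgxb3 (0.935). Lox had the loosest match, with Hs6st2 at 0.901. Each of these is the highest r of a search over all 12767 genes, in 12 livers whose values share their scaling. A high r is therefore not shown to be particular to a pair.

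Most of the substrate transcripts rose as well. Of 10 fibrillar collagen and elastin genes tested, 6 rose in vehicle livers against regular diet, among them Col1a1 (5.03 ± 0.37, adjusted p = 8.77e-09), Col1a2 (4.32 ± 0.30, adjusted p = 5.44e-09), Col3a1 (3.93 ± 0.31, adjusted p = 2.27e-08) and Eln (3.64 ± 0.34, adjusted p = 1.42e-07), 2 fell and 2 did not pass. The same fit was then made on values relative to the sum of Col1a1, Col1a2 and Col3a1 in each library, a ratio in which a single scaling factor per library cancels except for the pseudocount. Quantile normalization is no such factor and did move these values. Relative to this sum, 94.8% of all genes tested were lower in vehicle livers and 0.634% were higher, against regular diet, with a median of -4.14. Of the 10 genes, 8 were lower, with a median of -1.55 over the 10.

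Lox did not pass in either comparison with regular diet, and Plod2 passed only in that of antibody livers. Relative to fibrillar collagen, Lox differed by 0.17 ± 0.33 between vehicle and regular diet (adjusted p = 0.615) and by -0.01 ± 0.33 between antibody and regular diet (adjusted p = 0.969). The vehicle value of Lox turned negative, without passing, at a pseudocount of 10 (-0.35), with quantile normalization (-0.79) and with Col1a1 alone as the divisor (-0.68). Plod2 differed by -0.58 ± 0.30 in vehicle livers (adjusted p = 0.0669) and was lower in antibody livers, at -0.72 ± 0.30 (adjusted p = 0.0251). Under the same 3 alternatives Plod2 was lower in vehicle livers too, at -0.86, -1.52 and -1.43 (adjusted p = 0.00819, 0.000529 and 0.000597). They gave 9 of the 10 lower in vehicle livers, and 9, 9 and 10 in antibody livers. The shares of all genes lower under these alternatives are not given here. Before these changes 94.8% of all genes were lower in vehicle and 94.5% in antibody livers. Loxl1 was lower in vehicle livers, at -0.86 ± 0.35 (adjusted p = 0.0245) and stood at -0.65 ± 0.35 in antibody livers (adjusted p = 0.0833). P4ha3 was lower in vehicle livers, at -1.14 ± 0.54 (adjusted p = 0.0455) and stood at -1.05 ± 0.54 in antibody livers (adjusted p = 0.0651). Loxl2 (-1.31), Serpinh1 (-1.79) and Loxl3 (-2.17) were lower still in vehicle livers, and Plod1 (-4.50) and Loxl4 (-5.70) lay beyond the median of all genes, with Plod3 (-4.10) just short of it. In the antibody comparison 7 of the 10 were lower, where 94.5% of all genes were lower and 0.623% higher. The calls for Loxl1, Plod2 and P4ha3 changed when single livers were left out. Without vehicle replicate 1, for example, Loxl1 stood at -0.62 (adjusted p = 0.0697), P4ha3 at -1.12 (adjusted p = 0.0608) and Plod2 at -0.64 (adjusted p = 0.049) in the vehicle comparison.

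**Figure D4:**
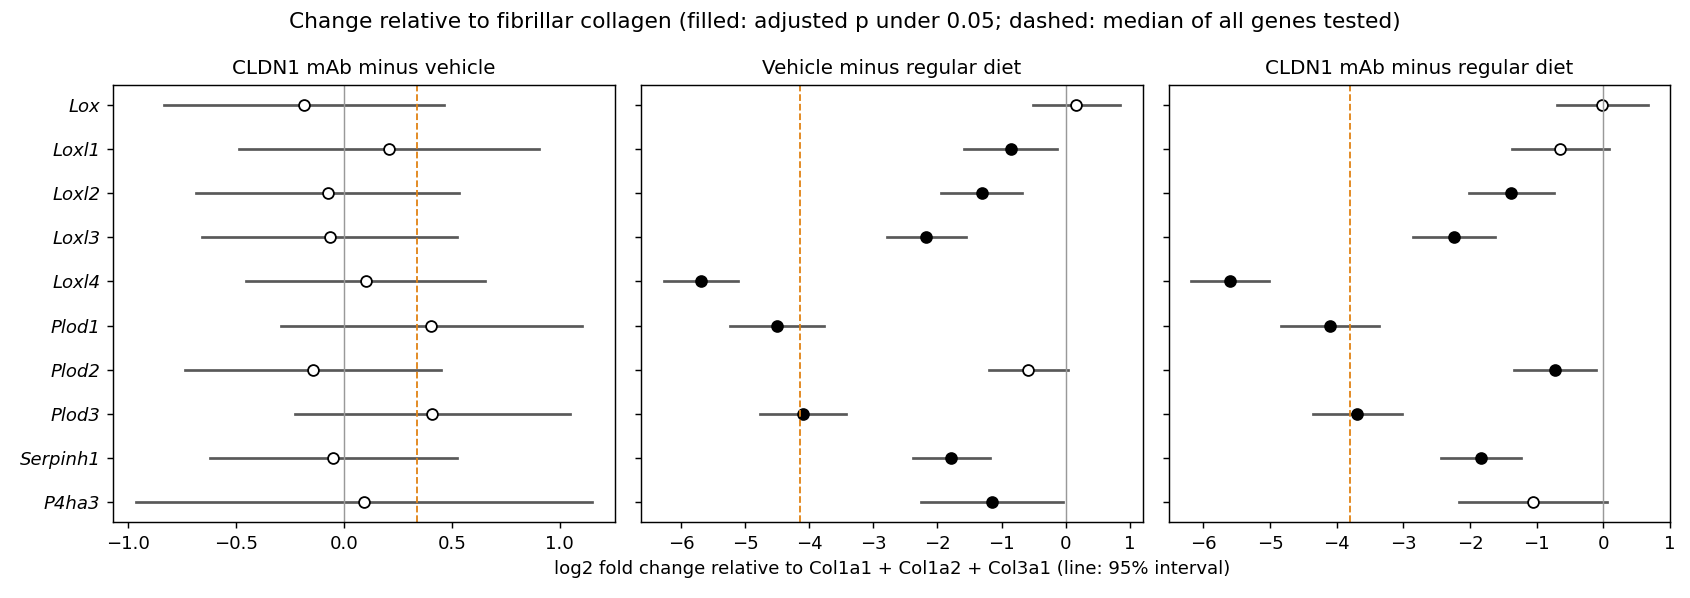
Change of the 10 genes relative to the sum of Col1a1, Col1a2 and Col3a1 (log2, points) with 95% intervals (lines) for antibody minus vehicle, vehicle minus regular diet and antibody minus regular diet, where filled points have an adjusted p under 0.05 and the dashed line is the median of all genes tested. In both comparisons with regular diet Lox sits at about 0 (0.17 and -0.01), and Loxl4, at -5.70 and -5.60, is the lowest.

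The other genes of collagen modification moved in both directions. Of 13 such genes, 5 rose in vehicle livers against regular diet, 3 fell and 5 did not pass. Those that rose were P3h2 (2.31 ± 0.32, adjusted p = 1.25e-05) and P3h3 (2.13 ± 0.38, adjusted p = 0.000144) of the prolyl 3-hydroxylase family, their relative P3h4 (2.07 ± 0.48, adjusted p = 0.00159), Crtap (2.06 ± 0.30, adjusted p = 2.02e-05), a partner of prolyl 3-hydroxylase, and Fkbp10 (2.75 ± 0.52, adjusted p = 0.000285), an isomerase needed for telopeptide lysine hydroxylation. Those that fell were Ppib (-0.67 ± 0.27, adjusted p = 0.0464), the cyclophilin that works with Crtap, Fkbp14 (-0.35 ± 0.13, adjusted p = 0.0328) and Colgalt2 (-1.97 ± 0.44, adjusted p = 0.00129), a collagen galactosyltransferase. The other two catalytic subunits of prolyl 4-hydroxylase did not pass, with P4ha1 at 0.59 ± 0.27 (adjusted p = 0.0732) and P4ha2 at -0.14 ± 0.31 (adjusted p = 0.724). Nor did P4hb (-0.28 ± 0.25), their shared partner subunit, P3h1 (-0.08 ± 0.15) or Colgalt1 (0.60 ± 0.26). In antibody livers against regular diet, 5 rose, 2 fell and 6 did not pass, with Ppib at -0.47 ± 0.27 (adjusted p = 0.183) among the last. Scaling to equal totals gave 9 higher and 1 lower in the vehicle comparison, and 7 higher and 1 lower in the antibody comparison. Over all genes it gave 9502 higher and 1259 lower for vehicle, and 7155 higher and 829 lower for antibody.

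**Figure D5:**
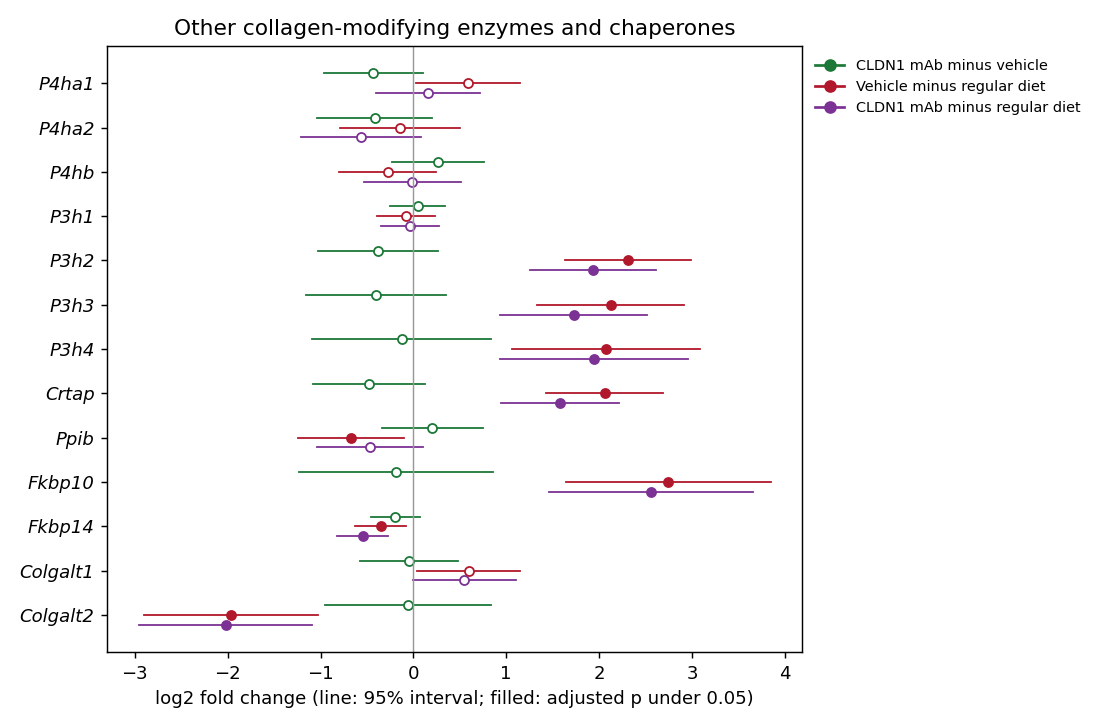
Fold changes (log2, points) with 95% intervals (lines) of the other 13 collagen-modifying genes, for antibody minus vehicle (green), vehicle minus regular diet (red) and antibody minus regular diet (purple), where filled points have an adjusted p under 0.05. P3h2, P3h3, P3h4, Crtap and Fkbp10 lie above 0 in both comparisons with regular diet, Colgalt2 lies at -1.97 and -2.02, and no green point is filled.

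Genes of collagen processing, export and other crosslinks rose in 10 of 19 cases in vehicle livers and fell in 3. Among them were Mrc2 (3.98 ± 0.36, adjusted p = 1.02e-07), a receptor that takes up collagen for degradation, Fmod (3.004 ± 0.35, adjusted p = 1.69e-06), a proteoglycan that binds collagen fibrils, and the procollagen N-proteinases Adamts14 (2.31 ± 0.29, adjusted p = 3.43e-06) and Adamts2 (2.81 ± 0.37, adjusted p = 6.82e-06). In antibody livers 9 of 19 rose and 2 fell. Of 13 basement membrane and other network collagens, 12 rose and Col18a1 fell in both comparisons with regular diet (with the same total per library, 0 of them fell in antibody livers). In vehicle livers Col18a1 stood at -1.54 ± 0.24 (adjusted p = 4.23e-05), against Col6a3 at 3.90 ± 0.39 (adjusted p = 2.51e-07). Of 12 TGF-beta target and pathway genes, 10 rose in vehicle and 9 in antibody livers, and 0 fell. In vehicle livers the 4 with the smallest p were Itgb6 (5.06 ± 0.43, adjusted p = 4.99e-08), an integrin chain that activates latent TGF-beta, Ltbp2 (4.88 ± 0.41, adjusted p = 4.36e-08), Tnc (3.94 ± 0.26, adjusted p = 3.86e-09), the matrix protein tenascin C, and Tgfb2 (3.73 ± 0.32, adjusted p = 6.09e-08), a ligand.

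The general chaperones and disulfide isomerases of the endoplasmic reticulum, which serve secreted proteins of all kinds, were lower where Serpinh1 was higher, in a number that depended on the scaling. In vehicle livers against regular diet, 0 of 16 rose and 13 fell, with Hyou1 at -1.68 ± 0.22 (adjusted p = 6.96e-06) and Dnajc3 at -1.05 ± 0.15 (adjusted p = 1.7e-05). In antibody livers 0 rose and 11 fell. With the same total per library 4 fell in vehicle and 6 in antibody livers, and with quantile normalization 6 fell in each and 1 rose in vehicle livers. Targets of the hypoxia-inducible factors, 2 of them (P4ha1 and P4ha2) also counted above, were split, with 7 of 21 higher, 7 lower and 7 not passing in vehicle livers. In that comparison Pfkfb3 rose by 1.87 ± 0.22 (adjusted p = 2e-06) and Hk2 by 2.53 ± 0.32 (adjusted p = 4.09e-06), both glycolytic, while Pdk1 stood at -1.45 ± 0.20 (adjusted p = 1.08e-05) and Egln3 at -0.99 ± 0.15 (adjusted p = 3.16e-05). In antibody livers 4 rose and 5 fell. Scaled to equal totals, 11 were higher and 1 was lower in vehicle livers. Over all genes that scaling gave 9502 higher and 1259 lower in vehicle livers, with a median of 0.66, so no turn of these targets is read from it.

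The comparison of antibody with vehicle livers asks whether CLDN1 mAb changed these genes within the model. None of the 10 passed the test in limma, the smallest adjusted p was 0.659, and 0 of the 10 had an unadjusted p under 0.05. Over all genes, 0 of 18624 passed. An unadjusted p under 0.05 was found for 7.47% of genes in either direction and for 3.15% in the lower one. Of the 10 fold changes, 8 were below 0, as were 55.7% of those of all genes, and the median was -0.36, beside -0.05. The groups overlapped for all 10, while over all genes 0.0644% were higher and 0.258% lower in antibody livers with no overlap.

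Lox averaged 292 ± 105 normalized counts in antibody livers and 425 ± 95.1 in vehicle livers (SD, n = 6 each), with a fold change of -0.57 ± 0.27 (95% interval -1.14 to 0.0028, unadjusted p = 0.051, adjusted p = 0.659). Plod2 differed by -0.53 (-1.17 to 0.12), Loxl2 by -0.46 (-1.08 to 0.16), Loxl3 by -0.45 (-1.07 to 0.17) and Serpinh1 by -0.43 (-1.11 to 0.25). P4ha3 (-0.29, -1.26 to 0.67), Loxl4 (-0.28, -0.99 to 0.42) and Loxl1 (-0.18, -1.25 to 0.89) had wider intervals. Those of Plod1 (0.02, -0.30 to 0.34) and Plod3 (0.02, -0.42 to 0.46) were the narrowest. For Loxl3 and P4ha3, 0 of 6 antibody livers lay above the vehicle mean. For Lox, Loxl2, Loxl4, Plod2 and Serpinh1 1 of 6 did, for Loxl1 2 of 6, and for Plod1 and Plod3 3 of 6. The shares over all genes are not given here. Relative to fibrillar collagen, the differences of the 10 lay between -0.18 (Lox) and 0.41 (Plod1 and Plod3), and none passed (0% of all genes did). Their median was 0.02, beside 0.34 over all genes.

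Library codes in the labels fall into a run of 25 to 30 and a run of 36 to 42, each with 3 antibody and 3 vehicle livers, while the regular diet livers carry codes 31 to 35, so code and diet cannot be told apart. Antibody minus vehicle was below 0 for 6 of 10 genes within codes 25 to 30 and for 10 of 10 within codes 36 to 42. The share of all genes below 0 within each run is not given here. The 10 genes varied together among livers, so these are not 10 separate results. Lox differed by -0.64 and -0.50 in these runs, Plod2 by -0.55 and -0.51, Serpinh1 by -0.28 and -0.58, and Loxl1 by 0.26 and -0.61. Without vehicle replicate 1, the lowest vehicle liver for each of the 10, all 10 differences were below 0 and none passed in limma. They lay between -0.69 (Loxl3, adjusted p = 0.212) and -0.11 (Plod1, adjusted p = 0.662). Leaving out the lowest vehicle liver moves each difference down in any case, so nothing is concluded from this count. The share of all genes below 0 in that fit is not given here.

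Markers of several cell types differed between the same groups. The summed level of 9 myofibroblast and portal fibroblast markers ranged over 12087 to 41510 normalized counts in antibody livers, 8623 to 48686 in vehicle livers and 2684 to 4364 in regular diet livers, and 9 of 9 rose in antibody and 8 of 9 in vehicle livers against regular diet. The sum of 8 stellate cell markers ranged over 6594 to 14699 in antibody, 6458 to 25976 in vehicle and 7476 to 12581 in regular diet livers, and 2 of 8 rose in antibody and 3 of 8 in vehicle livers. The sum of 7 cholangiocyte markers was 39998 to 78229 in antibody, 44941 to 100440 in vehicle and 2559 to 4127 in regular diet livers, with 7 of 7 higher in both model groups. The sum of 6 macrophage markers was 90907 to 158070 in antibody, 54196 to 234420 in vehicle and 4454 to 15556 in regular diet livers, with 5 of 6 higher in both. Hepatocyte markers fell in 3 of 7 cases in antibody and in 7 of 7 in vehicle livers, a count that depended on the scaling (2 and 5 with equal totals, 1 and 2 with quantile normalization). With quantile normalization 7 of 9 myofibroblast and portal fibroblast markers rose in either model group, and 1 of 8 stellate cell markers in antibody and 2 in vehicle livers.

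Other cell types in the tissue gave fewer calls. The sum of 4 smooth muscle markers stood at 63.8, 184 and 5563 normalized counts (lowest, median and highest) in antibody livers, 102, 260.2 and 427 in vehicle livers and 118, 262 and 392 in regular diet livers, and none of the 4 passed against regular diet. The highest antibody liver thus lay far above the antibody median and above every vehicle and regular diet liver. Endothelial markers summed to 2225 to 7222 in antibody, 1991 to 11669 in vehicle and 4712 to 10067 in regular diet livers, where 2 of 6 fell in antibody and 1 in vehicle livers (with equal totals, 0 in either). Of 4 mesothelial markers, 1 rose in both model groups, namely Wt1 (3.73 ± 0.55 in vehicle livers, adjusted p = 2.02e-05). The adipocyte gene Cfd (-4.04, adjusted p = 0.000871) and the pancreatic gene Cela1 (-1.07, adjusted p = 0.016), each the only one of its 4 markers tested, fell in vehicle livers, and both fell in antibody livers as well (Cela1 in neither with equal totals). Between antibody and vehicle none of these markers passed, and their median differences were -0.22 for myofibroblast, -0.37 for stellate cell, -0.34 for cholangiocyte, -0.37 for macrophage and 0.74 for hepatocyte markers. The part of these cell types in the levels of the 10 genes was not tested.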

How the data were processed

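RNA-seq libraries of 17 livers were used, grouped by their titles. For every gene the authors deposited a signal, a normalized count made by cuffnorm per the labels, with Cufflinks 2.2.1 on build mm10 per the submitters' processing notes. Aligner, annotation release, strand and scaling option are not given in the sources used here. No count model was used, because these are not raw counts. Low values were whole multiples of 1 step within 0.05 of a step in 97.8 to 98.3% of cases, which gave the estimated fragments. An exact 0 can be a failed estimate.

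Symbols, exon lengths and overlaps came from GENCODE M21, which matched 52398 identifiers (99.7%). Genes at 10 or more in at least 5 libraries were fitted with limma 3.58.1 (trend) in R 4.3.3 on log2(value + 1), which understates changes of low genes, with group as the only term and two-sided tests. The p-values measure the spread between mice. The procedure was tested on simulated data in which each gene varied independently. In these livers the 10 genes varied together, so nothing is concluded here from that run. Correlations used scipy 1.17.1. The 10 genes and all lists were chosen with earlier results of these data known. Genes named were the 10, all 13 other modification genes and the 4 genes with the smallest p past the threshold of each other list (or the closest 2 where none passed). For likeness the 3 nearest genes with a mean of at least 50 were sought, and the text gives the nearest. Col18a1 was named after its values were seen. Aldoa matched more than 1 identifier and was not used. Proteins were not analysed here.

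Alternatives changed the pseudocount, filter, scaling, trend, block, groups in the fit and each left-out library. Leaving out vehicle replicate 1 and regular diet replicate 1 together, and correlating after scaling to the same total, were chosen after seeing the data.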

Additional observations from a re-analysis of the deposited data

Results flagged for a closer look

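Dixon's test at the 95% level was applied to each of the 10 genes in each of the 3 groups, 30 groups in all. It set 3 values apart, from antibody replicate 6 and regular diet replicate 1. Chance would do so in about 1 of 20 independent groups of normally distributed values. The 30 groups share livers, and the values were not on a log scale. Loxl4 stood at 171.6 normalized counts in antibody replicate 6, against 97.7 in the nearest antibody liver. Plod3 stood at 3068 in regular diet replicate 1, against 1595 in the nearest regular diet liver. Loxl1 stood at 221.1 in the same regular diet liver, against 94.95 in the nearest. Regular diet replicate 1 had the highest deposited total of all libraries, 74.6 M, and its part in these values was not tested.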

How the results depend on the processing

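Leaving out each library in turn kept 7 of the 10 genes higher and 1 lower in vehicle and in antibody livers against regular diet, and 0 past the threshold between antibody and vehicle. Over all genes, these fits gave 5087 to 5946 higher and 3337 to 4703 lower in vehicle livers, and 4199 to 5140 higher and 2117 to 3857 lower in antibody livers. With the same total per library, 9502 genes rose and 1259 fell in vehicle livers, 7155 rose and 829 fell in antibody livers, and 0 of the 10 fell in vehicle livers (8 rose, with Plod3 at 0.71, adjusted p = 0.0161 in limma). Without filter, 2 genes were lower in antibody than in vehicle livers. Without vehicle replicate 1 and regular diet replicate 1 together, 4410 genes fell in antibody livers against regular diet. Relative to fibrillar collagen, leaving out each library gave 6 to 8 of the 10 lower in either comparison with regular diet. The shares of all genes in these fits are not given here. With all livers they were 94.8% for vehicle and 94.5% for antibody. With Col1a1 alone as the divisor, Lox passed in antibody livers at -0.97 (adjusted p = 0.0249 in limma). The cause of these changes was not tested.

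Replicate numbers did not pair the livers, since the correlation of same-numbered deviations ran between -0.344 and 0.656 over 16 pairs, 2 of them best with their own number. With the replicate number as a block, 7 of the 10 still rose and 1 fell in vehicle livers (5393 and 3795 of all genes), with Lox at 4.27 and Loxl4 at -1.68, and P4ha3 relative to fibrillar collagen stood at -0.999 (adjusted p = 0.0729 in limma). Of 667 alternative fold changes of the 10 genes, 641 kept direction and side of the threshold, 1 lost it, 3 gained it, 22 changed sign without having passed, and 0 of those that had passed changed sign. Low fragment numbers limit P4ha3 and, in regular diet livers, Lox and Plod2.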
